A study of Mus musculus with 12 samples.

Results

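The Ly6 surface antigens described here were the genes *Ly6a*, *Ly6c1*, *Ly6c2*, *Ly6d* and *Ly6e*, 5 of the 19564 genes listed in the count tables of cells sorted as mouse glomerular endothelial cells (GEC). They were selected on their counts in these libraries, WT and AS, dim and bright, and taken by gene name, so their levels and differences are given as a description and no p-value is given for them. The dim cells carry the GEC label, but leukocyte marker RNA exceeded endothelial marker RNA in all 6 of their libraries, and they are called dim cells here. All 5 genes were listed in both tables, one for dim and one for bright cells, and all passed the filter on low counts in every comparison.

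The libraries came from 6 untreated C57BL/6 mice at 4 months of age, 3 wild type (WT) and 3 with Alport syndrome (AS, Col4a5 -/-), a hereditary disease of the collagen IV network of the glomerular basement membrane. Every mouse, controls included, carried Tek-Cre and a tdTomato reporter, which turns red wherever the Tek promoter has driven Cre. Tek-Cre is known to be active in blood cell lineages as well as in endothelium, which limits the reporter as a mark of endothelial cells. Cells of digested glomeruli were sorted into a dim and a bright tdTomato fraction of the same mouse, which gave the groups WT-dim, AS-dim, WT-bright and AS-bright with 3 libraries each. Total gene counts ran from 11440169 to 13923267 in the 6 dim libraries and from 13674045 to 15074909 in the 6 bright ones.

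Ly6 proteins are small surface proteins with the finger-like fold of the Ly6/uPAR family, and most are held in the outer leaflet of the membrane by a glycosylphosphatidylinositol (GPI) anchor. Ly6a is Sca-1, the antigen used to sort mouse haematopoietic stem cells, and it is also found on many endothelial cells. The Ly6C antigen is carried by the products of *Ly6c1*, known from endothelium, and *Ly6c2*, known from inflammatory monocytes. Ly6d is known from the B cell lineage, and Ly6e is an interferon-induced member with wide expression.

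The 5 genes lie on chromosome 15 of GRCm38 within 349.9 kb. *Ly6d* (ENSMUSG00000034634) occupies chr15:74762056-74763620 on the minus strand and *Ly6e* (ENSMUSG00000022587) chr15:74955051-74959905 on the plus strand. *Ly6a* (ENSMUSG00000075602) occupies chr15:74994877-74998031, *Ly6c1* (ENSMUSG00000079018) chr15:75044018-75048830 and *Ly6c2* (ENSMUSG00000022584) chr15:75108158-75111970, all on the minus strand. All are protein-coding and none overlaps another annotated gene. *Ly6c1* and *Ly6c2* are 59.3 kb apart and are near copies of each other. Their coding sequences, both of 396 bases, differed at 9 positions with no gap, an identity of 97.7%, and the longest identical stretch was 188 bases. The first 300 bases of both coding sequences (Gencode M21, GRCm38, 5′ to 3′), which hold 7 of the 9 differences, are shown because the levels of this pair of near copies lay in opposite fractions, and capitals mark the bases that differ.
Ly6c1: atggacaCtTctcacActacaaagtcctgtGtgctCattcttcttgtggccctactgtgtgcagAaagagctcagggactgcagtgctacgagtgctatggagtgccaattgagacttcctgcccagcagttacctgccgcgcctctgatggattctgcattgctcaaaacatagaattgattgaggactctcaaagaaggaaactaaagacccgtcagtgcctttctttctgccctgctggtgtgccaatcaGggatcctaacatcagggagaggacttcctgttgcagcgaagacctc
Ly6c2: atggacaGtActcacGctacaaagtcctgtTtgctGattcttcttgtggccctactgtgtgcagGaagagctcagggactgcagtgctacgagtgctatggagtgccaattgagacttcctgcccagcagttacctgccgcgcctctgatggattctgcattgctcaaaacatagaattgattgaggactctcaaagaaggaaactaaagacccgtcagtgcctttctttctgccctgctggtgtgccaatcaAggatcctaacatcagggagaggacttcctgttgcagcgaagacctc
The coding sequence of *Ly6a* was 82.0% identical to that of *Ly6c1* and 81.7% to that of *Ly6c2*, while *Ly6e* and *Ly6d* were 52.7% and 47.5% identical to *Ly6a*.

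Shared sequence bears on how well reads can be given to 1 gene. Of all 100-base windows in the annotated transcripts of *Ly6c1*, 10.1% also occurred in transcripts of another gene, against 5.81% for *Ly6c2* and 1.45% for *Ly6a*, and *Ly6e* and *Ly6d* shared none. For 50-base windows the shares were 32.8% for *Ly6c1*, 14.4% for *Ly6c2* and 19.0% for *Ly6a*. The counts of these 3 genes are uncertain to the extent that reads in such windows were dropped or given to the other copy.

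The 250 bases before the RefSeq start were read for 2 of the 5 genes, *Ly6c1* (chr15:75048838-75049087, GRCm38.p6, minus strand) and *Ly6c2* (chr15:75111972-75112221, GRCm38.p6, minus strand). They are shown for the same contrast, with motif matches in capitals.
Ly6c1: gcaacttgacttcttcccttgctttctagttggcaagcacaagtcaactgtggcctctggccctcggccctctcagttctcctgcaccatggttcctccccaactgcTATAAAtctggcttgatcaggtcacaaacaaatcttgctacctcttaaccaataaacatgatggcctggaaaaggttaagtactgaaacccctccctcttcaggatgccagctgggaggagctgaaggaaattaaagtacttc
Ly6c2: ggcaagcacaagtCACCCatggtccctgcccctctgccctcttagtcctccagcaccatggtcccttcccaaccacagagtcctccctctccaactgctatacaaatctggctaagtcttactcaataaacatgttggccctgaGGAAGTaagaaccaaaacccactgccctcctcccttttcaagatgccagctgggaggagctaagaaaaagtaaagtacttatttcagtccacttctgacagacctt
These windows were 57.7% identical over an alignment with 52 mismatches and 68 gap columns. Each window is cut at the RefSeq start of its own gene, and the 2 are offset along the sequence they share. The gap columns therefore include unmatched ends, and this identity cannot be set beside that of the coding sequences. The motifs searched, on both strands, were the TATA box (TATAAA), the palindrome TTCNNNGAA, the ETS site (GGAAGT), the KLF site (CACCC), the AP-1 site (TGACTCA) and the core of the interferon-stimulated response element (ISRE), and no match overlapped another. The *Ly6c1* window held 1 match to TATAAA, which was also present in 12.4% of the 32851 RefSeq windows of this length. The *Ly6c2* window held 1 match to GGAAGT and 1 to CACCC, which occurred in 19.7% and 52.0% of all windows. The other motifs, found in 7.02% (the palindrome), 2.98% (ISRE core) and 4.46% (AP-1) of all windows, had no match in either.

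Levels were expressed in CPM, the read count of a gene scaled to a common library size, with library sizes set by the trimmed mean of M-values (TMM) over the 15768 genes in both tables. *Ly6c1* had the highest CPM of the members in bright GEC and the lowest in AS-dim cells. Its level was 2017, 1839 and 2649.7 CPM in the 3 WT-bright libraries and 1239, 1068 and 1746 CPM in the 3 AS-bright libraries. In WT-dim cells the values were 274, 228 and 136 CPM, and in AS-dim cells they were 20.9, 21.9 and 27.3 CPM. The 4 groups did not overlap, in the order WT-bright, AS-bright, WT-dim and AS-dim. Their means were 2169 ± 426, 1351 ± 353, 212 ± 70.2 and 23.3 ± 3.43 CPM (SD, n = 3). By mean CPM *Ly6c1* ranked 33 of 15768 genes in WT-bright, 83 in AS-bright, 884 in WT-dim and 5563 in AS-dim.

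*Ly6a* (Sca-1) had the same order of group means over a smaller range. WT-bright libraries had 602, 463 and 666 CPM, and AS-bright libraries had 339.8, 357 and 544 CPM. The WT-dim libraries held 299, 286 and 182 CPM, and the AS-dim libraries 46.1, 62.5 and 104 CPM. Both bright groups overlapped, every WT-dim library lay below them, and every AS-dim library lay below WT-dim. Group means were 577 ± 104, 413 ± 113, 255 ± 64.0 and 70.7 ± 29.6 CPM (SD, n = 3) for WT-bright, AS-bright, WT-dim and AS-dim.

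*Ly6c2*, the monocyte copy, was high where *Ly6c1* was low. It reached 185, 131 and 326 CPM in WT-dim and 307, 271 and 726 CPM in AS-dim. Bright libraries held 3.26, 5.27 and 6.47 CPM in WT and 3.56, 2.70 and 3.39 CPM in AS, from 42 to 99 reads per library. Every dim library was above every bright one, while the WT and AS ranges overlapped within each fraction. Means were 214 ± 101 CPM in WT-dim, 435 ± 253 in AS-dim, 5.0 ± 1.62 in WT-bright and 3.22 ± 0.455 in AS-bright (SD, n = 3).

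*Ly6d*, the B lineage antigen, was also high in the dim fraction. The WT-dim libraries had 343, 207 and 549.9 CPM and the AS-dim libraries 268, 309 and 218 CPM, and these ranges overlapped. In bright GEC 7 to 43 reads per library were counted, or 2.05, 0.485 and 1.5 CPM in WT-bright and 2.64, 0.515 and 3.11 CPM in AS-bright. The bright ranges also overlapped, and both lay far below the dim libraries. Means were 367 ± 173 CPM in WT-dim, 265 ± 45.5 in AS-dim, 1.34 ± 0.793 in WT-bright and 2.09 ± 1.38 in AS-bright (SD, n = 3).

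*Ly6e* was the flattest member. Its levels were 423, 425 and 511 CPM in WT-dim and 628, 565 and 881 CPM in AS-dim. They were 618, 612 and 644 CPM in WT-bright and 922, 549 and 632 CPM in AS-bright. WT-dim lay below the other groups, which overlapped each other. Group means ran from 453 ± 50 CPM in WT-dim to 701 ± 196 CPM in AS-bright (SD, n = 3), and the gene ranked between 188 and 317 of 15768 genes in the 4 groups.

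**Figure D1:**
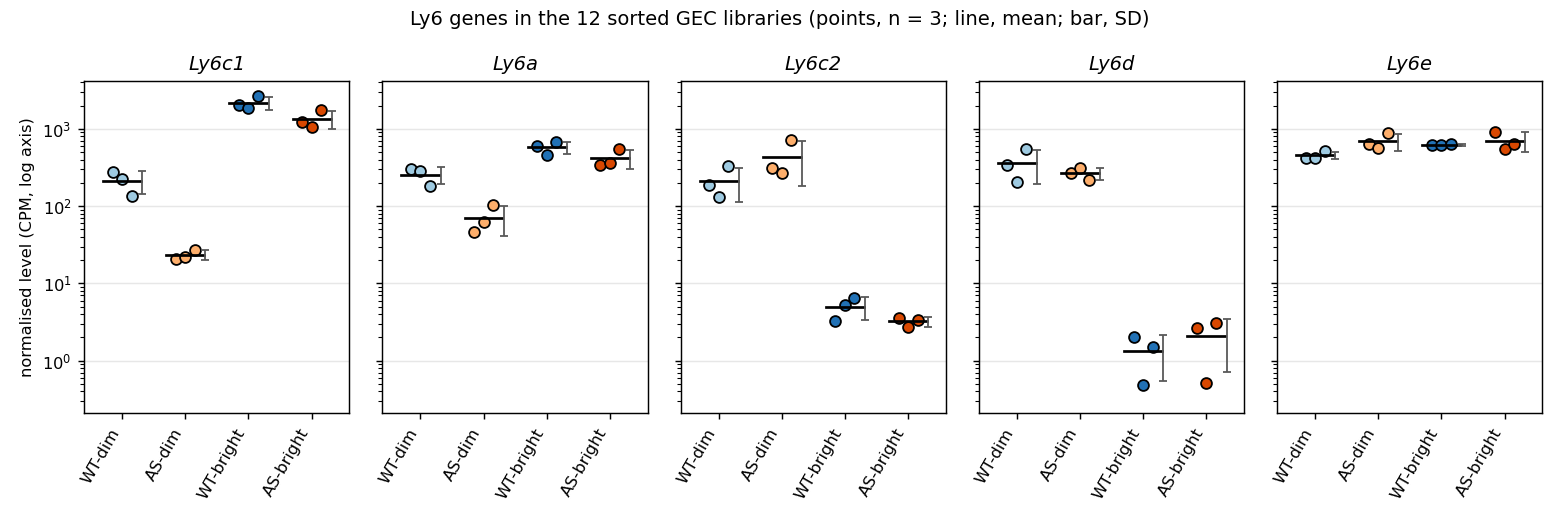
Normalised level (CPM, log axis) of the 5 Ly6 genes in each of the 12 libraries, by group, with the group means and SD (n = 3). *Ly6c1* and *Ly6a* sat highest in the bright groups, *Ly6c2* and *Ly6d* in the dim groups, and *Ly6e* stayed between 423 and 922 CPM.

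To compare levels between genes, CPM were divided by the merged exon length of each gene in kb. On that scale *Ly6c1* led in WT-bright at 1293 ± 254 CPM per kb (SD, n = 3), ahead of *Ly6a* at 479 ± 86.0 and *Ly6e* at 165 ± 4.48. *Ly6c2* and *Ly6d* stood at 1.82 ± 0.591 and 1.81 ± 1.07 CPM per kb there and overlapped. In AS-bright the order of the leading 3 was the same, at 806 ± 210, 343 ± 93.8 and 185 ± 51.7 CPM per kb, none of which overlapped. *Ly6d* led in both dim groups, at 493 ± 232 CPM per kb in WT-dim and 356 ± 61.1 in AS-dim, without overlap with the next gene. The order then was *Ly6a* (212 ± 53.1 CPM per kb), *Ly6c1* (127 ± 41.8), *Ly6e* (119.7 ± 13.2) and *Ly6c2* (78.1 ± 36.9) in WT-dim, where each neighbour overlapped the next. In AS-dim *Ly6e* (183 ± 44.3 CPM per kb) and *Ly6c2* (159 ± 92.4) overlapped, and *Ly6a* (58.7 ± 24.6) and *Ly6c1* (13.9 ± 2.05) followed apart.

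**Figure D2:**
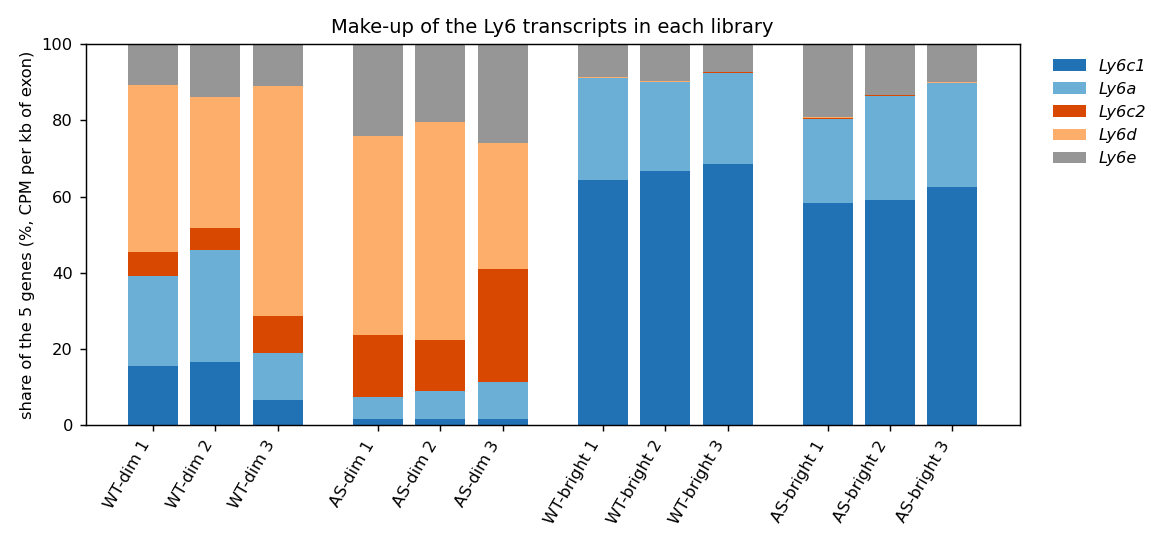
Share of each gene in the summed level of the 5 Ly6 genes (percent, from CPM per kb of exon), one stacked bar per library. *Ly6c1* made up 58.2% to 68.5% in bright libraries and 1.79% to 16.7% in dim ones, where *Ly6d* took 32.8% to 60.3%.

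The make-up of the Ly6C pair was also read within each library, which needs no scaling between libraries. Of the reads counted on *Ly6c1* and *Ly6c2* together, *Ly6c2* took 40.3%, 36.5% and 70.6% in the WT-dim libraries and 93.6%, 92.5% and 96.4% in the AS-dim libraries. In the bright libraries its share was 0.161% to 0.286% in WT and 0.194% to 0.287% in AS. The 95% Wilson interval of a single library was at most 2.93 percentage points wide and covers counting error only. Every AS-dim library lay above every WT-dim library. The summed CPM of the pair was 426 ± 58.9 in WT-dim and 458 ± 257 in AS-dim (SD, n = 3), closer than the spread.

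The cell type label was checked against markers. All 14 endothelial markers were listed in both tables, and their summed level was 10988 to 16267 CPM in WT-bright, 16136 to 18721 in AS-bright, 760.4 to 1404 in WT-dim and 235 to 321 in AS-dim. The 6 leukocyte markers summed to 7179.7 to 11951 CPM in WT-dim, 12076 to 12655 in AS-dim, 72.7 to 117 in WT-bright and 139 to 168 in AS-bright, so that in all 6 dim libraries the leukocyte sum exceeded the endothelial sum. The 6 proximal tubule markers summed to 929 to 3947 CPM in WT-dim, 8.64 to 294 in AS-dim, 233 to 1574 in WT-bright and 14.9 to 280.0 in AS-bright. No listed marker was at 0 in a whole group. In bulk libraries, fewer cells of a type and less RNA per cell cannot be told apart.

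Beside these sums, *Ly6c1* amounted to 11.3% to 18.4% of the endothelial sum in WT-bright and 16.2% to 22.0% in WT-dim. In AS it amounted to 6.45% to 10.8% in bright and 7.12% to 8.90% in dim cells, and no AS library reached the lowest WT library. *Ly6a* amounted to 1.82% to 5.48% of the endothelial sum in bright libraries and 19.6% to 32.2% in dim libraries. Thus *Ly6a*, unlike *Ly6c1*, was a larger share of the endothelial sum in every dim library than in any bright one. *Ly6c2* was 2.70% to 3.6% of the monocyte and macrophage sum in WT-dim, 2.50% to 5.31% in AS-dim, 1.95% to 3.71% in WT-bright and 1.03% to 1.17% in AS-bright, over the 6 of 8 markers listed in both tables. *Ly6d* was 32.7% to 62.0% of the B cell sum in WT-dim, 33.6% to 36.4% in AS-dim, 24.1% to 54.2% in WT-bright and 9.30% to 116% in AS-bright, over the 4 of 6 markers listed in both, which summed to 2.01 to 5.54 CPM in bright libraries. The part of cell make-up in the members' levels was not tested.

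**Figure D3:**
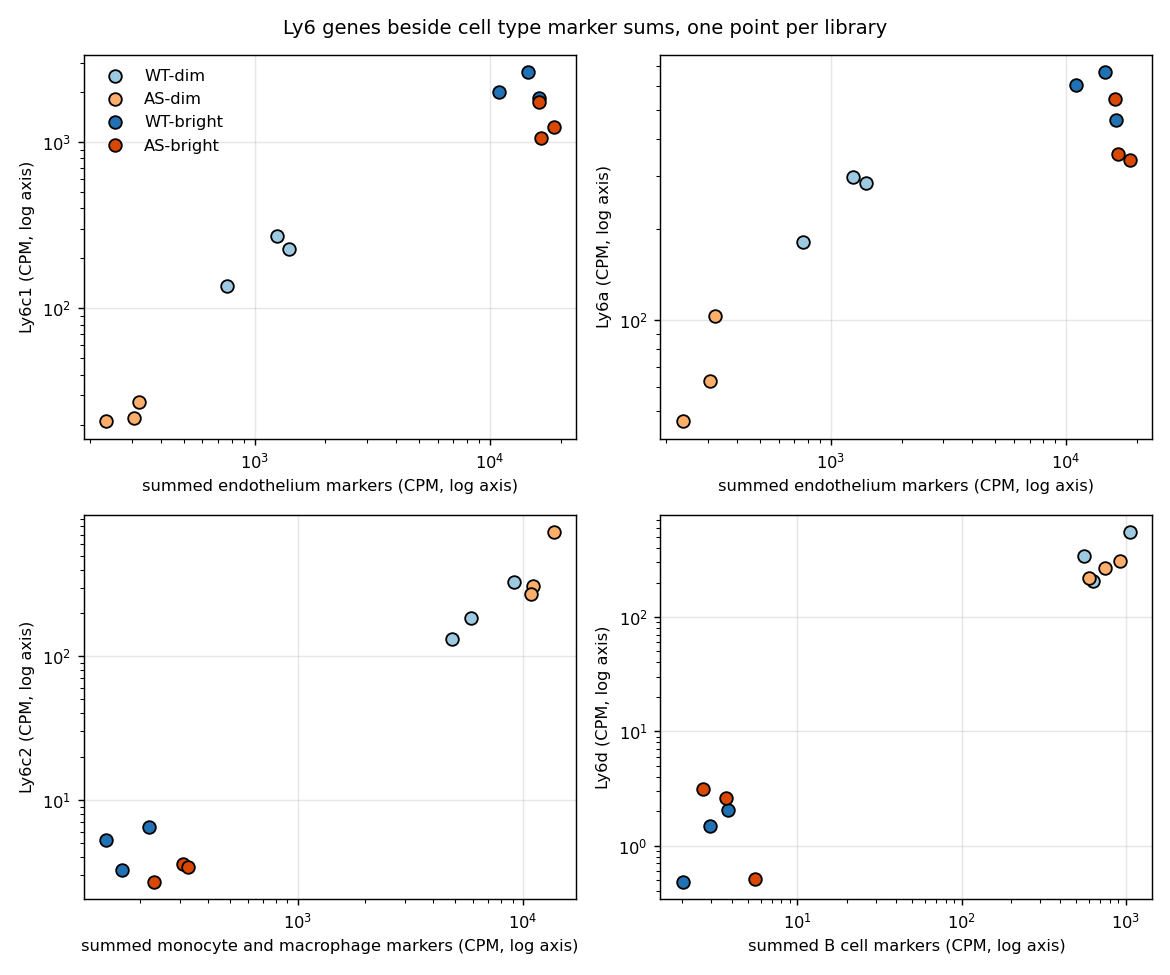
Level of 4 Ly6 genes against the summed level of a marker list (both CPM, log axes), one point per library coloured by group. *Ly6c1* and *Ly6a* are set against 14 endothelial markers, *Ly6c2* against 6 monocyte and macrophage markers and *Ly6d* against 4 B cell markers. In the *Ly6c1* panel AS-dim sits lowest on both axes, at 20.9 to 27.3 CPM of *Ly6c1*.

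The comparison of bright over dim cells asked how the sorted fractions of the same glomeruli differ. In WT, 4 of the 5 members were called at an adjusted p under 0.05 by the edgeR quasi-likelihood test, where 25.3% of the 14247 genes tested were called, 13.8% higher and 11.5% lower in bright. *Ly6c1* was higher in bright by 3.44 ± 0.32 on the log2 scale (estimate ± SE), or 10.9-fold, and *Ly6a* by 1.27 ± 0.27, or 2.40-fold. *Ly6c2* had a log2 fold change of -5.34 ± 0.46, or 40.5-fold more in dim, and *Ly6d* of -7.98 ± 0.57, or 253-fold more in dim. *Ly6e*, at 0.55 ± 0.21, was not called. The groups overlapped for none of the 5 genes, where 41.9% of all genes tested did not overlap.

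In AS the same 4 members were called, where 55.1% of the 14052 genes tested were called, 28.6% higher and 26.5% lower in bright. The log2 fold change of *Ly6c1* was 5.87 ± 0.26, or 58.5-fold, and that of *Ly6a* 2.56 ± 0.31, or 5.91-fold. *Ly6c2* stood at -7.06 ± 0.47, or 134-fold more in dim, and *Ly6d* at -7.00 ± 0.40, or 128-fold more in dim. Without AS-dim replicate 3 *Ly6c2* stood at -6.47. In both genotypes the bright level of *Ly6c2* came from few reads beside many of its near copy *Ly6c1*. The part of reads given to the wrong copy was not tested. *Ly6e* stood at 0.04 ± 0.24 and its groups overlapped. The groups did not overlap for the other 4 genes, as for 62.4% of all genes tested.

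Since dim and bright cells came from the same mice, the ratio could also be read mouse by mouse. For *Ly6c1* the bright level was 7.37, 8.08 and 19.5 times the dim level in the WT mice and 59.4, 48.7 and 64.1 times in the AS mice. For *Ly6a* the WT mice had ratios of 2.02, 1.62 and 3.66 and the AS mice of 7.38, 5.71 and 5.25. For both genes each AS mouse exceeded each WT mouse. *Ly6c2* was higher in dim by 56.6, 24.8 and 50.5 times in WT and by 86.2, 100.3 and 214 times in AS. These ratios did not overlap either, and they rested on few bright reads. For *Ly6d* the WT mice had dim over bright ratios of 167, 427 and 366 and the AS mice of 102, 599.9 and 70.2. They overlapped and rested on few bright reads. *Ly6e* was higher in bright in all 3 WT mice, by 1.46, 1.44 and 1.26 times, and its bright over dim ratios were 1.47, 0.971 and 0.717 in AS.

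The comparison of AS over WT asked what differs with the disease within a fraction. In bright GEC 0 of the 5 members were called by the edgeR quasi-likelihood test, where 0.452% of the 14396 genes tested were called, 0.188% higher and 0.264% lower in AS. In the same comparison 2 members had an unadjusted p under 0.05, beside 3145 of the 14396 genes tested. DESeq2 called 1 member, *Ly6c1*, beside 1117 of all genes, and the edgeR likelihood ratio test called 0, beside 827. *Ly6c1* had a log2 fold change of -0.75 ± 0.25, and it was the only member of the 5 whose groups did not overlap, as for 24.5% of all genes tested. *Ly6a* stood at -0.55 ± 0.24, *Ly6c2* at -0.69 ± 0.43, *Ly6d* at 0.52 ± 0.68 and *Ly6e* at 0.11 ± 0.23. With the mean of the proximal tubule markers as a covariate *Ly6d* turned to -0.42 and *Ly6e* to -0.17, and *Ly6c2* stood at -1.20. With that of the leukocyte markers *Ly6d* turned to -0.40 and *Ly6a* stood at -0.88. Without AS-bright replicate 1 *Ly6e* turned to -0.16.

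In dim cells 2 of the 5 members were called, where 8.62% of the 14637 genes tested were called, 2.21% higher and 6.41% lower in AS. *Ly6c1* had a log2 fold change of -3.20 ± 0.31, or 9.19-fold less in AS-dim, and *Ly6a* of -1.87 ± 0.34, or 3.65-fold less. *Ly6c2* at 1.01 ± 0.45, *Ly6e* at 0.60 ± 0.21 and *Ly6d* at -0.48 ± 0.33 were not called. The groups did not overlap for *Ly6c1*, *Ly6a* and *Ly6e*, as for 31.2% of all genes tested. Of the endothelial markers, 9 of 13 tested were called lower in AS-dim and 0 higher, and of the monocyte and macrophage markers 4 of 8 were called higher and 0 lower.

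Both calls in dim cells were lost under some alternatives. Leaving out 1 library called from 0 to 1823 genes in all, so that a lost call need not be particular to the gene. Without AS-dim replicate 1 neither gene was called, with *Ly6c1* at -3.15 and *Ly6a* at -1.66, and without AS-dim replicate 3 neither was called, at -3.32 and -2.24. *Ly6a* was also not called without AS-dim replicate 2, at -1.83, nor with the replicate block, at -1.92. The differences that were not called also moved: *Ly6c2* stood at 0.43 without AS-dim replicate 3, the library with 726 CPM, and *Ly6d* at -0.07 without WT-dim replicate 3, the library with 549.9 CPM. With the proximal tubule marker mean as a covariate no gene at all was called, and so neither *Ly6c1* nor *Ly6a*. There *Ly6c1* stood at -3.04, *Ly6a* at -2.23, *Ly6c2* at -0.34 and *Ly6e* at 0.01. With the leukocyte marker mean as a covariate *Ly6c1* was called at -2.32 and *Ly6a* was not, at -1.25, while *Ly6c2* stood at -0.05, *Ly6d* at -1.22 and *Ly6e* at 0.28.

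Whether the AS over WT difference itself differed between bright and dim cells was read from the interaction term over all 12 libraries. *Ly6c1* was 1 of the 5 members called, where 3.77% of the 15084 genes tested were called (2.96% higher and 0.815% lower), with a difference of 2.49 ± 0.39 on the log2 scale between the bright and the dim contrast, beside a median of 0.13 over all genes. *Ly6a*, at 1.36 ± 0.43, was not called, and with a term for the mouse it was called at 1.39. *Ly6c2* (-1.67 ± 0.66), *Ly6d* (1.05 ± 0.77) and *Ly6e* (-0.45 ± 0.32) were not called, and *Ly6c2* stood at -1.07 without AS-dim replicate 3. Of the endothelial markers, 10 of 14 were called higher in this term. The 5 comparisons share libraries, so their values stand side by side and are not independent.

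**Figure D4:**
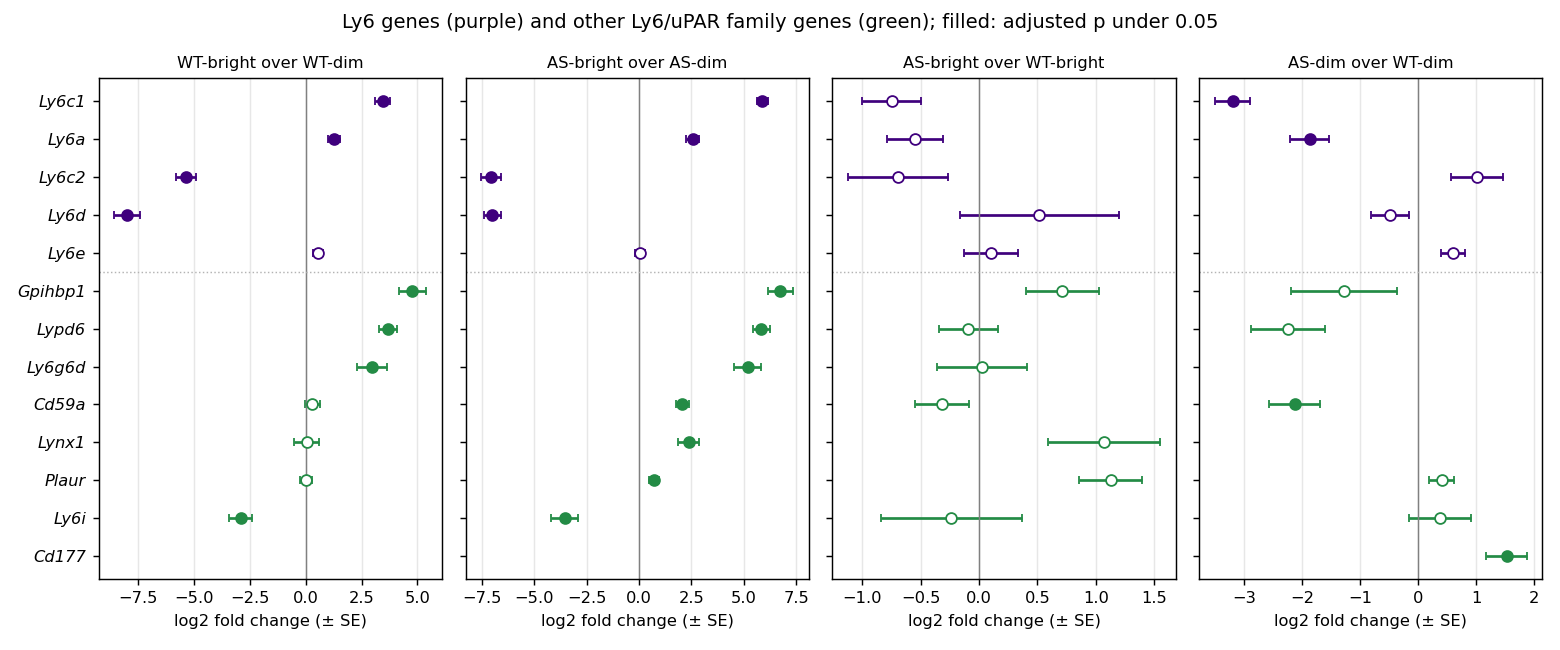
Log2 fold change (points) with its SE (bars) in 4 comparisons for the 5 Ly6 genes (purple) and 8 other genes of the Ly6/uPAR family (green). Filled points had an adjusted p under 0.05, the horizontal scales differ between panels, and a gene not tested has no point. *Ly6g6d* and *Lynx1* passed the filter in the bright over dim panels through the bright libraries, and their points there are not read as results. In both bright over dim panels *Ly6c1* and *Ly6a* lie right of 0 and *Ly6c2* and *Ly6d* left of it.

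Of 33 other Ly6/uPAR family genes, 14 were listed. In bright over dim cells 3 of 8 tested rose and 1 fell in WT, where 25.3% of all genes tested were called, and 6 of 7 rose and 1 fell in AS, where 55.1% were called. Of the 5 that passed the filter on low counts within both fractions, 2 rose and 1 fell in WT, and 4 rose and 1 fell in AS. *Gpihbp1*, which carries lipoprotein lipase across capillary endothelium and also lies on chromosome 15 (chr15:75596628-75599481), rose by 4.77 ± 0.61 in WT and 6.74 ± 0.60 in AS on the log2 scale, with adjusted p of 0.000516 and 7.11e-06 (edgeR). Leaving out single dim libraries moved both: *Gpihbp1* had 18.2, 4.49 and 4.17 CPM in WT-dim and 0.923, 1.25 and 9.03 in AS-dim, and stood at 5.78 in WT without WT-dim replicate 1 and at 8.51 in AS without AS-dim replicate 3. *Lypd6*, a modulator of Wnt signalling, rose by 3.69 ± 0.39 and 5.82 ± 0.40, with adjusted p of 0.000195 and 1.15e-06 (edgeR), and stood at 6.62 in AS without AS-dim replicate 2. *Ly6g6d* and *Lynx1* are among those counted as higher, but they passed the filter on low counts through the bright libraries, so that no fold or p is given for them. *Ly6g6d*, which overlaps *Ly6g6e*, had 6.59 to 14.3 CPM in WT-bright, 0.269 to 2.59 in WT-dim, 8.34 to 13.9 in AS-bright and at most 0.71 in AS-dim. *Lynx1*, a brake on nicotinic receptors, had 2.38 to 2.83 CPM in AS-bright and 0.167 to 0.8 in AS-dim, from 2 to 44 reads per library.

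*Ly6i*, which was 86.4% identical to *Ly6a* in coding sequence, fell in bright over dim cells. Its log2 fold change was -2.91 ± 0.52 in WT and -3.54 ± 0.64 in AS, with adjusted p of 0.00353 and 0.000996 (edgeR), and in AS it was -2.76 without AS-dim replicate 3. *Plaur*, the urokinase receptor, rose in AS-bright over AS-dim by 0.71 ± 0.24 (adjusted p = 0.0296, edgeR), and its interaction term was not called (adjusted p = 0.291). The call of *Plaur* was kept in 10 of 14 alternatives, with adjusted p from 0.00553 to 0.131 (edgeR and DESeq2). It was lost without AS-bright replicate 1 (0.51) or 3 (0.69) and without AS-dim replicate 1 (0.77) or 2 (0.55). *Ly6g*, the neutrophil antigen, was listed in the dim table alone, at 0.179 to 6.83 CPM, and was not called (adjusted p = 0.696, edgeR).

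*Cd59a*, which shields cells from complement, was called in the interaction, but in 5 of 19 alternatives only. Its level was 24.0 to 53.8 CPM in WT-dim, 4.88 to 11.1 in AS-dim, 38.2 to 46.0 in WT-bright and 30.3 to 39.4 in AS-bright. It fell by 2.13 on the log2 scale in AS-dim over WT-dim (SE 0.44, adjusted p = 0.0283, edgeR), and stood at -0.32 ± 0.23 in AS-bright over WT-bright (adjusted p = 0.455). The interaction was 1.84 ± 0.48 (adjusted p = 0.0491, edgeR). In bright over dim cells it rose by 2.07 ± 0.30 in AS (adjusted p = 0.000248, edgeR) and stood at 0.29 ± 0.34 in WT (adjusted p = 0.567). *Cd177*, a neutrophil antigen listed in the dim table alone, rose in AS-dim over WT-dim by 1.53 ± 0.35 (adjusted p = 0.0374, edgeR). The 6 neutrophil markers, all listed in the dim table, were not called in that comparison, with a median log2 fold change of -0.70, and the 3 listed in both tables summed to 485 to 2258 CPM in WT-dim and 498 to 905 in AS-dim. The call of *Cd59a* in dim cells was kept in 10 of 16 alternatives and that of *Cd177* in 7 of 15. With the proximal tubule covariate no gene at all was called, and with the leukocyte covariate far fewer genes than in the main fit. Neither *Cd59a*, at -0.98 and -1.21, nor *Cd177*, at 1.05 and 0.82, was called there. Without AS-dim replicate 1, 2 or 3 or WT-dim replicate 1, *Cd59a* was not called, at -2.42, -2.22, -1.85 and -1.72, and *Cd177* was not, at 1.60, 1.58, 1.30 and 1.55. Leaving out 1 library called from 0 to 1823 genes in all in this comparison. *Cd177* was also not called without WT-dim replicate 2 (1.22) and with gene-wise dispersions (1.53). In AS-bright over WT-bright 0 of 8 family genes were called by edgeR. Of these, 3 had an unadjusted p under 0.05, beside 3145 of all 14396 genes tested. DESeq2 and the likelihood ratio test called 1 each, beside 1117 and 827 of all genes.

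The genes that build, attach and trim the GPI anchor, on which the surface display of most Ly6 proteins rests, were mostly not called. Of 25 tested, 1 rose and 1 fell in WT-bright over WT-dim, where 25.3% of all genes tested were called, and 5 rose and 5 fell in AS-bright over AS-dim, where 55.1% were called, with medians of 0.09 and 0.09 on the log2 scale beside -0.04 and 0.02 over all genes. *Pgap1*, the inositol deacylase of the anchor, fell by 2.59 in WT and by 4.13 in AS, with adjusted p of 0.000306 and 2.81e-06 (edgeR). *Pigk*, the catalytic subunit of the GPI transamidase, rose by 1.38 and 1.65, with adjusted p of 0.0186 and 9.29e-05 (edgeR). Its call in WT was kept in 12 of 14 alternatives and lost without WT-bright replicate 3 (1.35) and without WT-dim replicate 2 (1.38). *Dpm2*, a subunit of dolichol phosphate mannose synthase, stood at 0.09 in WT (adjusted p = 0.869) and fell by 1.03 in AS (adjusted p = 0.0036, edgeR), and *Pgap2*, which acts in remodelling of the anchor, stood at 0.68 and 0.30 (adjusted p of 0.119 and 0.273, edgeR). In AS over WT 0 were called in either fraction by edgeR. In bright 3 of 25 had an unadjusted p under 0.05, beside 3145 of all 14396 genes tested, and in dim 2 of 25. DESeq2 called 1 in each, beside 1117 of all genes in bright and 2213 in dim, and the likelihood ratio test 0 and 1.

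*Ly6e* and *Ly6a* are known interferon targets, so interferon genes were set beside them. Of 27 interferon-stimulated genes tested, 14 rose and 4 fell in WT-bright over WT-dim, where 25.3% of all genes tested were called, and 12 rose and 4 fell in AS-bright over AS-dim, where 55.1% were called, with medians of 1.31 and 0.52 on the log2 scale beside -0.04 and 0.02 over all genes. *Rsad2*, the antiviral protein viperin, rose by 2.61 in WT and 2.37 in AS (adjusted p of 0.000125 and 0.000804, edgeR; 2.98 in AS without AS-dim replicate 3), and *Irf9*, a subunit of the interferon response factor ISGF3, rose by 1.31 and 1.35 (adjusted p of 0.00487 and 0.0023, edgeR). In AS over WT 1 of 27 rose in bright and 0 of 28 were called in dim by edgeR, with medians of 0.82 and 1.10 beside -0.03 and -0.02. In bright, 15 of the 27 had an unadjusted p under 0.05, beside 3145 of all 14396 genes tested. There DESeq2 and the likelihood ratio test called 10 each, beside 1117 and 827 of all genes. In dim, 10 of the 28 had an unadjusted p under 0.05, DESeq2 called 4, beside 2213 of all genes, and the likelihood ratio test 3. The unadjusted count in dim stands without its share of all genes and is not read as an excess. Of 7 interferon receptors and kinases, 3 fell in WT-bright over WT-dim, 6 fell in AS-bright over AS-dim and 0 rose in either, beside the same shares of all genes. Among them *Ifngr1*, a chain of the interferon gamma receptor, stood at -2.98 and -3.30 (adjusted p of 3.91e-05 and 2.21e-07, edgeR), and the kinase gene *Jak2* at -1.0 and -1.42 (adjusted p of 0.027 and 8.33e-05, edgeR). *Ifnar1*, a chain of the type I interferon receptor, and *Jak1* fell in AS, by 1.02 and 0.48 (adjusted p of 0.000292 and 0.0269, edgeR), and stood at -0.90 and -0.40 in WT (adjusted p of 0.0519 and 0.221, edgeR). The call of *Jak2* in WT was kept in 10 of 14 alternatives and lost without WT-bright replicate 1 (-0.82) or 2 (-1.01) and without WT-dim replicate 2 (-0.87) or 3 (-1.02). That of *Jak1* in AS was kept in 9 of 14, and lost without AS-bright replicate 1 (-0.50), without AS-dim replicate 1 (-0.53), 2 (-0.49) or 3 (-0.42) and with all 12 libraries in 1 fit (-0.47). *Ly6e* was called in none of the 5 comparisons.

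The genes most alike to each member were found by Pearson's r of log2 CPM over the 12 libraries among 11834 genes, as a description of libraries that share mice and fall into separate groups. *Ly6c1* was closest to *Ccm2l* (r = 0.993), to *Emcn* (r = 0.993), the endothelial sialomucin, and to *Adgrl4* (r = 0.992), an endothelial adhesion receptor. *Ly6a* was closest to *Hsp25-ps1*, *Ikzf4* and *Crtap*, with r from 0.973 to 0.977. *Ly6c2* was closest to *Alox5ap* (r = 0.993), a partner in leukotriene synthesis, *Prkcd* and *Evi2a*. *Ly6d* was closest to *Coro1a* (r = 0.991), an actin regulator of leukocytes, *Ighd* (r = 0.990), the IgD heavy chain, and *Arhgap9*. For *Ly6e* the values were lower, at 0.867 for *Psmb10*, an immunoproteasome subunit, 0.845 for *Oas1g* and 0.842 for *Cd47*. Among the members r was 0.965 for *Ly6a* and *Ly6c1*, 0.960 for *Ly6c2* and *Ly6d* and -0.915 for *Ly6c1* and *Ly6c2*, while *Ly6e* stayed between -0.329 and 0.0412 with the others.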

How the data were processed

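RNA of cells sorted as GEC was sequenced in 12 libraries, 4 groups of 3. Per the study's methods and the submitters' processing notes, poly-A libraries were aligned with STAR (2.6.0c) to GRCm38.p5 and counted by STAR per gene. FastQC (0.11.5), cutadapt, Trimmomatic and edgeR are also named there. The strand setting of the counting is not given in the sources used here. The authors deposited raw counts per gene in one table for dim and one for bright cells. The authors also deposited RPKM, and columns of their own comparison of AS over WT (log fold change, log CPM, likelihood ratio, p and FDR), which were not used. RPKM were not used to compare genes because the deposited length adds up exons over transcripts: for *Ly6e* it was 17200 bases in a gene span of 4855.

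Counts were fitted with edgeR 4.0.16 (R 4.3.3, TMM, filterByExpr, quasi-likelihood test, Benjamini-Hochberg over all genes tested, threshold 0.05). AS over WT was fitted within 1 table, bright over dim and the interaction on the 15768 genes in both. The SE is the absolute log2 fold change divided by the root of F. Depth was 11440169 to 15074909 counts per library. Replicates, each of 1 mouse, differed by more than counting error (chi-square statistic over its degrees of freedom 29.5 to 104, 12 pairs). Mouse numbers in the labels pair dim and bright libraries. Deviations of the same mouse correlated at 0.104 to 0.296 in WT and 0.103 to 0.462 in AS, and at means of -0.108 and -0.124 between different mice.

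The members and all gene lists were chosen with earlier results of these data known. Other family genes were named if called in at least 1 comparison or above an average log2 CPM of 1, and genes of other lists were taken from the 4 with the highest average level, not all of which are reported here. Alike genes were the 3 with the highest r (log2 CPM, prior count 2). Sequences came from Gencode M21 (GRCm38) and RefSeq (GRCm38.p6) and were aligned with Biopython 1.88. The fits were also run on simulated data, with results not reported here. Alternatives were other scalings, DESeq2 1.42.0, the likelihood ratio test, no filter, a replicate block, all 12 libraries in 1 fit, each library left out, marker means as covariates and, chosen after seeing the data, gene-wise dispersions.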

Additional observations from a re-analysis of the deposited data

Results flagged for a closer look

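The AS over WT difference of *Ly6c1* was listed for its interaction term of 2.49 on the log2 scale, from -0.75 in bright and -3.20 in dim cells. It is a description, since the gene was selected on its counts in these libraries. For *Cd59a* the interaction term was 1.84, from -0.32 in bright and -2.13 in dim cells. It was called in 5 of 19 alternatives, with adjusted p from 0.0107 to 0.113 (edgeR and DESeq2). Endothelial markers moved in the same libraries, and their part in both values was not tested.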

How the results depend on the processing

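In bright over dim cells the same 4 members were called in both genotypes under 14 of 14 alternatives, as a description of genes selected on these counts. In WT-bright over WT-dim 3601 genes were called, with 2533 to 3436 when 1 library was left out and up to 5207 with all 12 libraries in 1 fit. In AS-bright over AS-dim 7743 were called, with 6652 to 7488 when 1 library was left out and 6593 to 7756 over all alternatives. With the replicate block, which joins different mice in AS over WT, 16 genes were called in bright and 494 genes and 1 member, *Ly6c1*, in dim cells. In the interaction the block by mouse called 877 genes and 2 members, and in bright over dim it changed no call of a member.

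In AS-bright over WT-bright, 65 genes and 0 members were called. DESeq2 gave 1117 genes and 1 member, the likelihood ratio test 827 genes, no filter 39, all 12 libraries 139, gene-wise dispersions 0, the proximal tubule covariate 0 and the leukocyte covariate 1 (2906, 1240 and 2828 at an unadjusted p under 0.05 in the last 3), and leaving out 1 library 0 to 281. In AS-dim over WT-dim, 1262 genes and 2 members were called. DESeq2 gave 2213 genes, the likelihood ratio test 1946, all 12 libraries 2105, gene-wise dispersions 582, the proximal tubule covariate 0 genes (863 at an unadjusted p under 0.05) and 0 members, the leukocyte covariate 92 genes and 1 member, and leaving out 1 library 0 to 1823 genes and 0 to 2 members. In the interaction, 569 genes were called, with 1186 by DESeq2, 1114 by the likelihood ratio test and 252 to 856 genes and 1 to 2 members with 1 library left out. The cause was not tested. In bright libraries 7 to 99 reads of *Ly6c2* and *Ly6d* limit what can be said of AS over WT for these genes.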
